A study of Homo sapiens with 6 samples.

Results

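Genes of TGF-beta signaling were examined in the established human melanoma line LOX-IMVI after knockdown of NFKBIZ, which encodes the nuclear NF-κB co-regulator IκBζ. The 10 genes were picked by name out of 47432 in the tables, with earlier results of these data known. They comprise the ligands TGFB1, TGFB2, TGFB3 and INHBA, the latency protein gene LTBP2 and the receptors TGFBR1 and TGFBR2. The others are the signal transducer SMAD3, the inhibitory SMAD7 and the target TGFBI. RNA-seq was performed on 3 libraries of cells with a lentiviral control hairpin (shCtrl) and 3 of cells with a lentiviral hairpin directed at NFKBIZ (shNFKBIZ). Both groups grew in the same medium with serum and, according to the study's methods, received the hairpin from the same vector backbone. The methods also describe transduction with polybrene and selection with puromycin for these cells, and the labels give no further treatment. The knockdown rested on 1 hairpin sequence in transduced cells of 1 line, so that loss of NFKBIZ and any other effect of that hairpin cannot be told apart.

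TGF-beta ligands are made as precursors, and the cleaved ligand stays bound to its own propeptide in a latent complex. Activated ligand brings together the type II receptor TGFBR2 and the type I receptor TGFBR1, which phosphorylates SMAD2 and SMAD3. These join SMAD4 and act in the nucleus on targets that include SMAD7, an inhibitor that closes a feedback loop. Activin A, a dimer of the INHBA product, uses its own receptors but the same SMAD proteins. In melanoma the pathway is known for both growth-restraining and invasion-promoting actions.

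Of the 10 genes, 4 changed at least 2-fold at an adjusted P of at most 0.05 (edgeR quasi-likelihood test, hereafter the threshold). SMAD3, INHBA and TGFBI were lower and SMAD7 was higher in shNFKBIZ cells. Among all 13843 genes tested, 8.96% were past this threshold, 3.84% higher and 5.12% lower. TGFB1, TGFBR2 and LTBP2 also passed the adjusted P but by less than 2-fold, and TGFB2, TGFB3 and TGFBR1 did not pass it. As RNA was taken from whole cultures, less RNA per cell and fewer cells that express a gene cannot be told apart.

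The sequence before the transcription start is shown for the 4 genes past the threshold, because their start regions are where the SMAD, AP-1 and NF-κB factors of this system can be looked for. Each line holds the 250 bases before the first start site listed by RefSeq, on GRCh38.p14. INHBA is chr7:41703091-41703340 on the minus strand, SMAD3 is chr15:67065352-67065601 on the plus strand, SMAD7 is chr18:48950966-48951215 on the minus strand, and TGFBI is chr5:136028738-136028987 on the plus strand. Capitals mark matches to GGGNNNNNCC on either strand, a loose form of the NF-κB motif.
INHBA: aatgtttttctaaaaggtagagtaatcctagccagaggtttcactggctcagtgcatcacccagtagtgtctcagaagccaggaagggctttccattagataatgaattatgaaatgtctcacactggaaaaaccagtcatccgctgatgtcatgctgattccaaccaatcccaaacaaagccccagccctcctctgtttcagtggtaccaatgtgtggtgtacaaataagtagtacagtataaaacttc
SMAD3: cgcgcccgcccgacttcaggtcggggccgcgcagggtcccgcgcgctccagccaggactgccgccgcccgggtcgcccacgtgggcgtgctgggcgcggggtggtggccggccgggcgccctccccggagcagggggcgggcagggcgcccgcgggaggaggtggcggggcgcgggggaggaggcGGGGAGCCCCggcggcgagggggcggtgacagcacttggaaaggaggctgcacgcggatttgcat
SMAD7: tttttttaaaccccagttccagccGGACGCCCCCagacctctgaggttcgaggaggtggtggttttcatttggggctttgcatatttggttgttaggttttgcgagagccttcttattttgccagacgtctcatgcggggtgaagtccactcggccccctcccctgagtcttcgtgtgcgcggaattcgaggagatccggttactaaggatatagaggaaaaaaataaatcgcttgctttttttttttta
TGFBI: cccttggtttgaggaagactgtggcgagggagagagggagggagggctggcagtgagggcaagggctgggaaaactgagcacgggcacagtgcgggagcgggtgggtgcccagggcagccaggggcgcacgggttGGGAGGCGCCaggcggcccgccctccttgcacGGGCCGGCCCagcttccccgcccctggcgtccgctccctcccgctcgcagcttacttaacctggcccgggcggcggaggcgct

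All 10 genes had a RefSeq promoter, and 4 motifs were searched on both strands over 250 bases before to 50 bases after the start. GGGNNNNNCC matched in 6 of the 10 genes and in 57.99% of 27305 promoters, so that its presence is common. SMAD3 and SMAD7 held 1 match each, beginning 65 and 226 bases before the start. TGFBI held 3, at 115 and 83 bases before and 11 bases after the start, while TGFB1, LTBP2 and TGFBR1 held 9, 4 and 2 matches. Some of the matches in TGFB1 and in LTBP2 overlapped each other. The SMAD motif CAGACA, found in 16.83% of promoters, matched in INHBA, 27 bases after the start, and in TGFB2, 53 bases before it. The SMAD palindrome GTCTAGAC (0.2014% of promoters) and the AP-1 motif TGANTCA (7.764%) matched in none of the 10 windows. Only the first listed window of each gene was searched. RefSeq listed 8 windows for TGFBR1, 5 for SMAD3, 3 for SMAD7 and 2 each for TGFB3 and TGFBR2, and the annotated INHBA gene begins upstream of its 1 listed window. The annotated SMAD3 and TGFBR1 genes likewise begin upstream of the windows searched for them.

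NFKBIZ (ENSG00000144802) was measured first to check the labels. It had 1519, 1629 and 1674 exon reads in the shCtrl libraries and 474, 477 and 468 in the shNFKBIZ libraries, at 44.5 ± 4.12 and 13.7 ± 0.362 TPM (SD, n = 3). The fitted log2 change was -1.78 (SE 0.0581, adjusted P = 7.2e-17 by edgeR), or 3.43-fold lower. NFKBIZ shares part of its position with NXPE3 on the same strand. Libraries held 22264473 to 24624839 exon reads, and intron reads made up 7.16 to 7.46% of gene reads in shCtrl and 7.63 to 8.15% in shNFKBIZ cells.

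The labelled melanoma cells hardly expressed the melanocyte lineage. SOX10, MLANA and S100B had no read in any of the 6 libraries, only MITF exceeded 1 TPM, and the summed level of 8 lineage markers was 3.19 to 4.23 TPM in shCtrl and 1.79 to 2.62 TPM in shNFKBIZ cells. Of 6 markers of dedifferentiated melanoma, 5 exceeded 1 TPM in every library, and their sum was 1356 to 1407 TPM in shCtrl and 1976 to 2069 TPM in shNFKBIZ cells. Most of the difference lay in FOSL1, which had 8898, 9493 and 8423 reads in shCtrl and 15022, 15101 and 14742 in shNFKBIZ cells, while WNT5A went the other way, with 5852, 6073 and 5749 against 2591, 2612 and 2571 reads. The 3 immune markers summed to 96.6 to 99.7 TPM and 198 to 199 TPM, nearly all of it CD68, while PTPRC, which defines leukocytes, had 0 or 1 read and CD3E none. Epithelial markers summed to 14.4 to 14.8 and 23.1 to 27.0 TPM, mostly KRT8, and endothelial markers stayed at or below 0.102 TPM.

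Across the 10 genes, levels per length spanned a wide range. In shCtrl cells INHBA and TGFBR2 were highest, at 219 ± 5.46 and 209.6 ± 5.19 TPM (SD, n = 3), and their libraries overlapped. TGFB1 followed, then TGFBI and SMAD3, each without overlap with the gene above it. LTBP2 and TGFBR1 overlapped with each other at a lower level, SMAD7 lay below them, and TGFB3 and TGFB2 overlapped at the bottom, near 2 TPM. In shNFKBIZ cells the order was TGFBR2, TGFB1, INHBA, TGFBI, LTBP2, SMAD3, TGFBR1, SMAD7, TGFB2 and TGFB3, with overlap only between the last pair.

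**Figure D1:**
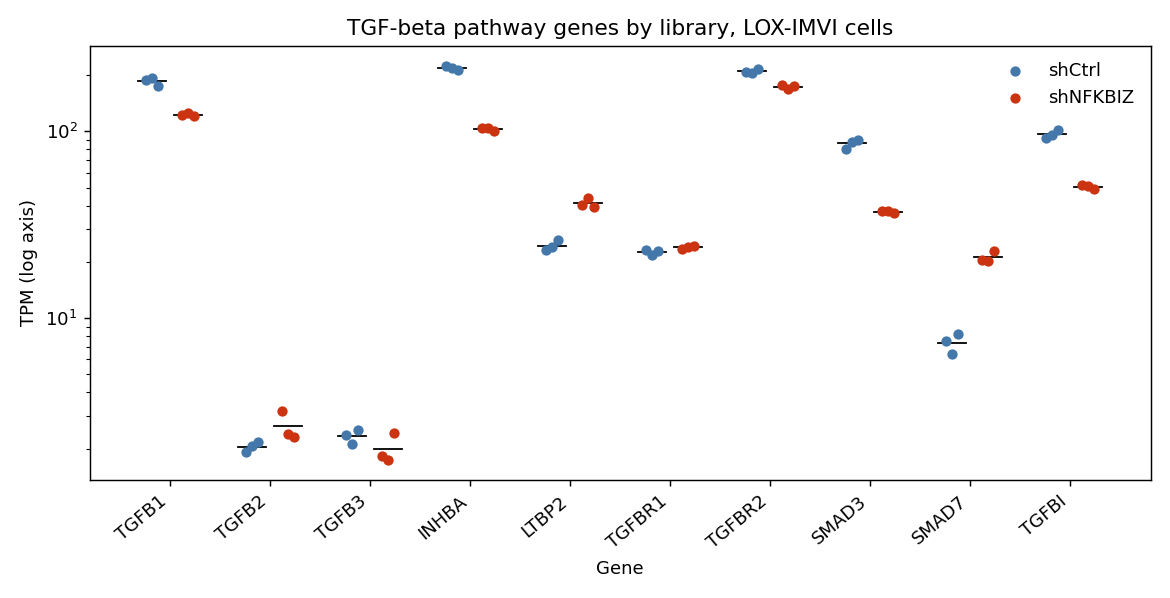
Expression of the 10 genes in TPM on a log axis, with 1 point per library (blue shCtrl, red shNFKBIZ, 3 each) and a line at each group mean. INHBA, SMAD3 and TGFBI sit lower and SMAD7 and LTBP2 higher in all 3 shNFKBIZ libraries, while the 2 groups lie close together for TGFBR1.

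Among the ligands, TGFB1 was by far the most expressed TGF-beta isoform. TGFB1 (ENSG00000105329, chromosome 19, 41301587 to 41353922, minus strand) had 3840, 4069 and 3286 exon reads in the shCtrl libraries and 2333, 2340 and 2346 in the shNFKBIZ libraries. All 3 knockdown libraries were below every control library. Its level fell, from 186 ± 10.1 in shCtrl to 123 ± 1.96 TPM (SD, n = 3), with a fitted log2 change of -0.69 (SE 0.0449, adjusted P = 3.43e-11 by edgeR), 1.61-fold and thus short of the 2-fold limit. TGFB1 overlaps several genes in the annotation, of which HNRNPUL1 on the opposite strand was the most abundant, with 7927 to 8605 reads in the 6 libraries. Counting ignored strand, so reads in shared stretches could have been assigned to either gene. CCDC97, also on the opposite strand, had 437, 464 and 445 reads in shCtrl and 652, 655 and 597 in shNFKBIZ cells, in the direction opposite to TGFB1.

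TGFB2 (ENSG00000092969, chromosome 1, 218345336 to 218444619, plus strand) was near the lower end of what the depth resolves, with 72, 80 and 76 exon reads in the shCtrl libraries and 113, 83 and 83 in the shNFKBIZ libraries. The first knockdown library stood above the other two. The level was 2.05 ± 0.132 TPM in shCtrl and 2.63 ± 0.489 TPM in shNFKBIZ cells (SD, n = 3), and the log2 difference was 0.28 (95% interval -0.04 to 0.59, adjusted P 0.114, edgeR). Without shNFKBIZ replicate 1 it was 0.11. The adjusted P was 0.0385 with scaling by library size alone and 0.0264 with uniquely mapped reads, and ranged up to 0.59 over the alternatives. Only 78.5% of its shCtrl reads and 84.6% of its shNFKBIZ reads mapped uniquely, and the lncRNA TGFB2-OT1, which lies within it on the same strand, had 4, 0 and 0 reads in shCtrl and 18, 13 and 35 in shNFKBIZ cells.

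TGFB3 (ENSG00000119699, chromosome 14, 75958097 to 75983011, minus strand) had 77, 71 and 76 exon reads in the shCtrl libraries and 56, 52 and 75 in the shNFKBIZ libraries, and the groups overlapped. The level was 2.34 ± 0.206 TPM and 1.99 ± 0.369 TPM (SD, n = 3), with a log2 difference of -0.31 (95% interval -0.65 to 0.04, adjusted P 0.112, edgeR). Without shNFKBIZ replicate 3 the difference was -0.48 at an adjusted P of 0.0286 (edgeR), and with total gene reads it was -0.35 at 0.0321, within a range up to 0.399 over the alternatives. IFT43 overlaps TGFB3 on the opposite strand and had 148 to 227 reads.

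Of the summed TPM of the 3 isoforms, TGFB1 made up 97.7 ± 0.272% in shCtrl and 96.4 ± 0.392% in shNFKBIZ cells (SD, n = 3). TGFB2 made up 1.08 ± 0.119% and 2.07 ± 0.384%, and TGFB3 1.23 ± 0.170% and 1.57 ± 0.310%. Exact two-sided permutation tests gave p = 0.1 for TGFB1, 0.1 for TGFB2 and 0.2 for TGFB3, or 0.15, 0.15 and 0.2 after Benjamini-Hochberg adjustment over these 3 tests. With 3 libraries against 3, no p below 0.1 was possible. A p of 0.1 here is the same as groups without overlap, as for TGFB1 and TGFB2. The 3 shares are parts of 1 sum, so these tests are not separate results.

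INHBA, which encodes the βA subunit of activin A, fell more than TGFB1. INHBA (ENSG00000122641, chromosome 7, 41667168 to 41705834, minus strand) had 11569, 11665 and 10210 exon reads in the shCtrl libraries and 5065, 4965 and 4955 in the shNFKBIZ libraries. The groups were far apart compared with the spread within each. It moved from 219 ± 5.46 to 103 ± 2.17 TPM (SD, n = 3), a fitted log2 change of -1.17 (SE 0.0360, adjusted P = 2.55e-17 by edgeR), or 2.25-fold lower. Its antisense gene INHBA-AS1 had no more than 2 reads in any library.

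LTBP2, an extracellular matrix protein of the family that binds latent TGF-beta, although it is not thought to bind the latent ligand itself, was higher after knockdown. LTBP2 (ENSG00000119681, chromosome 14, 74498183 to 74612378, minus strand) had 1300, 1400 and 1376 exon reads in the shCtrl libraries and 2150, 2301 and 2114 in the shNFKBIZ libraries. Every knockdown library exceeded every control library. The level rose from 24.4 ± 1.67 to 41.2 ± 2.55 TPM (SD, n = 3), with a fitted log2 change of 0.67 (SE 0.0467, adjusted P = 3.21e-11 by edgeR), or 1.59-fold.

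The receptors changed little. TGFBR1 (ENSG00000106799, chromosome 9, 99104038 to 99154192, plus strand) had 1151, 1113 and 1055 exon reads in the shCtrl libraries and 1096, 1099 and 1153 in the shNFKBIZ libraries, and the groups overlapped in CPM (reads scaled to library size) after scaling. Its fitted log2 difference was -0.0015 (95% interval -0.10 to 0.10, adjusted P 0.98, edgeR), so a change of 2-fold in either direction lay far outside the interval. In TPM, which does not carry the scaling factors of the fit, TGFBR1 was at 22.6 ± 0.797 in shCtrl and 23.9 ± 0.421 in shNFKBIZ cells (SD, n = 3). On that scale the groups did not overlap, at 21.7 to 23.2 TPM in shCtrl and 23.4 to 24.3 TPM in shNFKBIZ libraries.

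TGFBR2 (ENSG00000163513, chromosome 3, 30606601 to 30694142, plus strand) had 8820, 9073 and 8515 exon reads in the shCtrl libraries and 7071, 6648 and 7084 in the shNFKBIZ libraries. The knockdown libraries were all lower. Its level fell from 209.6 ± 5.19 to 173 ± 3.83 TPM (SD, n = 3), a fitted log2 change of -0.36 (SE 0.0343, adjusted P = 6.51e-09 by edgeR), or 1.28-fold. No other gene overlapped either receptor in the annotation.

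The SMAD genes held the largest changes of the 10 genes, in opposite directions. SMAD3 (ENSG00000166949, chromosome 15, 67063763 to 67195173, plus strand), the receptor-activated SMAD, had 5007, 5649 and 5177 exon reads in the shCtrl libraries and 2175, 2146 and 2156 in the shNFKBIZ libraries. The lowest control library was above any knockdown library. SMAD3 went from 86.2 ± 4.89 to 37.0 ± 0.575 TPM (SD, n = 3), with a fitted log2 change of -1.30 (SE 0.0399, adjusted P = 2.42e-17 by edgeR), or 2.47-fold lower.

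SMAD7 (ENSG00000101665, chromosome 18, 48919853 to 48950965, minus strand), an inhibitory SMAD, had 186, 162 and 186 exon reads in the shCtrl libraries and 473, 459 and 535 in the shNFKBIZ libraries. All knockdown libraries lay above the controls. It rose from 7.38 ± 0.910 to 21.2 ± 1.42 TPM (SD, n = 3), with a fitted log2 change of 1.44 (SE 0.0884, adjusted P = 3.91e-12 by edgeR), or 2.72-fold higher. SMAD7 overlapped no other gene, and SMAD3 only antisense lncRNAs with at most 4 reads.

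TGFBI, a secreted matrix protein named for its induction by TGF-beta, lay at the 2-fold limit. TGFBI (ENSG00000120708, chromosome 5, 136028988 to 136063818, plus strand) had 4407, 4761 and 4509 exon reads in the shCtrl libraries and 2329, 2264 and 2264 in the shNFKBIZ libraries. The groups did not overlap. The level fell, from 96.4 ± 4.74 in shCtrl to 50.6 ± 1.16 TPM (SD, n = 3), with a fitted log2 change of -1.01 (SE 0.0382, adjusted P = 9.87e-16 by edgeR), or 2.01-fold. The fold limit was missed without shCtrl replicate 3 (-0.99), without shNFKBIZ replicate 3 (-0.9993) and with library size alone (-0.92), while the adjusted P stayed at most 3.03e-12 over the alternatives.

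Counted together, 7 of the 10 genes passed the adjusted P limit of 0.05, 2 higher and 5 lower, and 8 of 10 had groups that did not overlap in CPM. Over all genes tested, these shares were 65.3%, divided into 32.5% higher and 32.8% lower, and 68.7% without overlap. On these counts the 10 genes were near the background. Their median log2 fold change was -0.33 against 0.0043 over all genes, and their median absolute log2 fold change was 0.68 against 0.30.

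Reads within introns, which come mostly from unspliced RNA, gave a separate count of the same libraries. TGFB1, INHBA, SMAD3 and TGFBI were past the threshold in intron reads, all lower, against 6.6% of 12119 genes. At the adjusted P alone it was 7 of 10 genes, against 38.8%. SMAD3 had 1053, 1122 and 1074 intron reads in shCtrl and 421, 484 and 452 in shNFKBIZ cells (log2 fold change -1.35, SE 0.0606, adjusted P 4.13e-20, edgeR). For INHBA the intron reads were 637, 670 and 646 in shCtrl and 263, 280 and 279 in shNFKBIZ cells (log2 fold change -1.34, SE 0.0688, adjusted P 2.32e-18, edgeR). Both genes thus fell in intron as well as in exon reads.

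TGFB1 fell more in intron than in exon reads. Its intron reads were 544, 513 and 481 in shCtrl and 245, 288 and 249 in shNFKBIZ cells, with a fitted log2 change of -1.07 (SE 0.0752, adjusted P = 2.08e-14 by edgeR). The exon change was less negative by 0.40 (SE 0.0768, adjusted P 1.95e-05, edgeR interaction test). Of the 10 genes it was the only one with an adjusted P of at most 0.05 for this difference, against 28.9% of 11025 genes. The lncRNA ENSG00000286177 on the same strand, which overlaps TGFB1, had 125, 138 and 99 exon reads in the shCtrl libraries and 45, 54 and 56 in the shNFKBIZ libraries, and its part in the intron result was not tested. Reads that cross exon junctions, which overlapping genes share less, were 1089, 1176 and 935 in shCtrl and 733, 712 and 660 in shNFKBIZ cells, a fitted log2 change of -0.57 (SE 0.0559, adjusted P = 1.45e-12 by edgeR).

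SMAD7 had 30, 37 and 31 intron reads in shCtrl and 66, 83 and 60 in shNFKBIZ cells. These reads rose by a fitted log2 change of 0.999 (SE 0.178, adjusted P = 2.14e-05 by edgeR), just under 2-fold. The exon change exceeded it by 0.45, with an adjusted P of 0.0855. TGFBI (-1.12, adjusted P 1.79e-13, edgeR), TGFBR2 (-0.41, adjusted P 2.96e-05, edgeR) and LTBP2 (0.69, adjusted P 3e-10, edgeR) changed in intron reads in the direction of their exon reads. TGFB2 had 8 to 19, TGFB3 8 to 22 and TGFBR1 24 to 35 intron reads per library, and none of them passed.

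**Figure D2:**
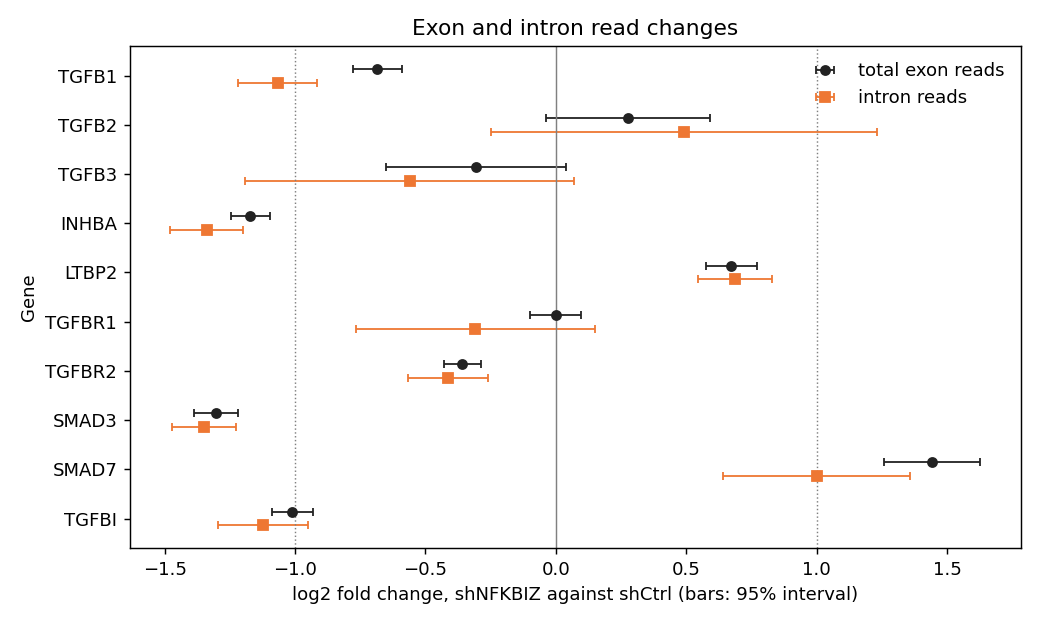
Log2 fold change of shNFKBIZ against shCtrl for exon reads (black circles) and intron reads (orange squares) of the 10 genes, with 95% intervals from the edgeR fits over 3 libraries per group and dotted lines at 2-fold. The 2 values lie close for SMAD3, LTBP2 and TGFBR2, and for TGFB1 the intron value (-1.07) is below the exon value (-0.69).

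The remaining pathway was described with a list of 96 other genes, of which 73 had enough reads to be tested. Of these, 13 (17.8%) were past the threshold, 5 higher and 8 lower, beside 8.96% of all genes. ITGB8 and COL1A2 were among the 13 and had enough reads to be tested only through the group where they were higher. With at least 10 counts in every library, 11 of the list were past the threshold, beside 891 of all 12894 genes. How many of the list were tested under that filter was not counted, so no share is given for it. The list was chosen with earlier results of these data known. At the adjusted P alone 55 of 73 (75.3%) passed, 27 higher and 28 lower, near the 65.3% of all genes (32.5% higher and 32.8% lower), and the median log2 fold change was -0.02. All levels that follow are means of TPM over 3 libraries, shCtrl first, and all fold changes are log2 values from edgeR.

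Of the other ligands 5 of 17 were tested, 4 passed the adjusted P (all genes, 65.3%) and none the threshold (all genes, 8.96%). Of the 10 other receptors tested 4 passed the adjusted P, below the share of all genes, and again none the threshold (all genes, 8.96%). Among 11 latency and activation genes 8 passed the adjusted P (all genes, 65.3%) and 1 the threshold, or 9.09%, near the 8.96% of all genes. This was ITGB8, an integrin subunit that takes part in activating latent TGF-beta. ITGB8 was scarcely expressed, with 7, 8 and 8 exon reads in the shCtrl libraries and 51, 55 and 58 in the shNFKBIZ libraries. It had enough reads to be tested only through the shNFKBIZ group, where it was higher, so the filter itself favoured a rise. The fitted change of 2.80 (SE 0.258, adjusted P 3.45e-09, edgeR) is therefore given as a description only.

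All 6 other SMAD genes were tested and 4 passed the adjusted P, close to the 65.3% of all genes. Of the 6, 1 was past the threshold (all genes, 8.96%). SMAD5, a receptor-activated SMAD of the BMP branch, fell from 72.4 ± 1.99 to 27.7 ± 0.0856 TPM (SD, n = 3; -1.47, SE 0.0380, adjusted P 1.44e-18, edgeR). SMAD2, SMAD4 and SMAD6 are named for their roles beside SMAD3 and SMAD7, after their values were seen. SMAD2 fell by 0.23 on the log2 scale (adjusted P 4.25e-05, edgeR), and SMAD4, the common partner, differed by -0.06 (adjusted P 0.217, edgeR). SMAD6, the other inhibitory SMAD, rose by 0.83 (adjusted P 2.91e-07, edgeR), from 143, 193 and 189 to 320, 308 and 313 exon reads.

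Among 17 tested regulators and inhibitors 15 passed the adjusted P (all genes, 65.3%) and 3 the threshold (all genes, 8.96%). FST, which encodes the activin-binding antagonist follistatin, had 65, 69 and 49 exon reads in the shCtrl libraries and 391, 382 and 376 in the shNFKBIZ libraries. It rose from 3.60 ± 0.443 to 23.8 ± 0.713 TPM (SD, n = 3; 2.64, SE 0.107, adjusted P 3.25e-15, edgeR), while INHBA, the activin subunit, fell. NOG, which encodes the BMP antagonist noggin, had 33, 41 and 16 reads in shCtrl and 74, 63 and 69 in shNFKBIZ cells (1.18, SE 0.230, adjusted P 0.000136, edgeR). Without shCtrl replicate 3, its lowest library, the change was 0.90 and the gene was no longer past the threshold. NEDD4L, a ubiquitin ligase that acts on activated SMAD2 and SMAD3, fell from 57.8 ± 0.981 to 29.6 ± 0.609 TPM (SD, n = 3; -1.05, SE 0.0354, adjusted P 1.41e-16, edgeR), and was below 2-fold with library size alone (-0.96).

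The targets were the class with most genes past the threshold, 8 of 24 tested, 6 lower and 2 higher (all genes, 8.96%). The 6 lower included COL1A2, which had enough reads to be tested only through the group where it was higher. At the adjusted P alone 20 of the targets passed (all genes, 65.3%). The matricellular genes CCN2 and CCN1, which are also targets of YAP and TEAD factors, fell from 841 ± 19.2 to 266 ± 5.87 TPM (SD, n = 3; -1.74, SE 0.0358, adjusted P 4.08e-20, edgeR) and from 547 ± 8.11 to 186 ± 2.99 TPM (SD, n = 3; -1.63, SE 0.0330, adjusted P 3.22e-20, edgeR). CDKN2B, a cell cycle inhibitor induced by TGF-beta in epithelial cells, fell from 22.6 ± 2.14 to 3.98 ± 0.372 TPM (SD, n = 3; -2.59, SE 0.10, adjusted P 1.5e-15, edgeR). BHLHE40, a transcriptional repressor, fell from 99.0 ± 3.44 to 23.2 ± 0.955 TPM (SD, n = 3; -2.18, SE 0.0524, adjusted P 4.29e-19, edgeR).

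The collagen gene COL1A1 fell from 31.0 ± 1.52 to 8.85 ± 1.32 TPM (SD, n = 3; -1.89, SE 0.0720, adjusted P 2.39e-12, edgeR). COL1A2 was near 0 in both groups, with 15, 19 and 14 reads in shCtrl and 2, 1 and 0 in shNFKBIZ cells, a ratio of 0.0659 per library size (exact 95% interval 0.0131 to 0.204, counting error only). It had enough reads to be tested only through the shCtrl group, where it was higher. Both collagens were also on the list of 5 fibroblast markers, whose summed level was 69.3 to 72.5 TPM in shCtrl and 37.7 to 40.5 TPM in shNFKBIZ cells. Of that list PDGFRA went the other way, with 154, 146 and 164 reads in shCtrl and 672, 620 and 657 in shNFKBIZ cells, and the part of this list in the result was not tested.

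Among the targets, 2 moved up past the threshold. TAGLN, an actin-binding protein of smooth muscle, rose from 5.6 ± 0.373 to 20.8 ± 0.874 TPM (SD, n = 3; 1.81, SE 0.0685, adjusted P 1.01e-15, edgeR). ANGPTL4, a secreted inhibitor of lipoprotein lipase, rose from 2.55 ± 0.0670 to 19.0 ± 1.61 TPM (SD, n = 3; 2.82, SE 0.122, adjusted P 1e-14, edgeR). Targets of the pathway thus moved in both directions.

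**Figure D3:**
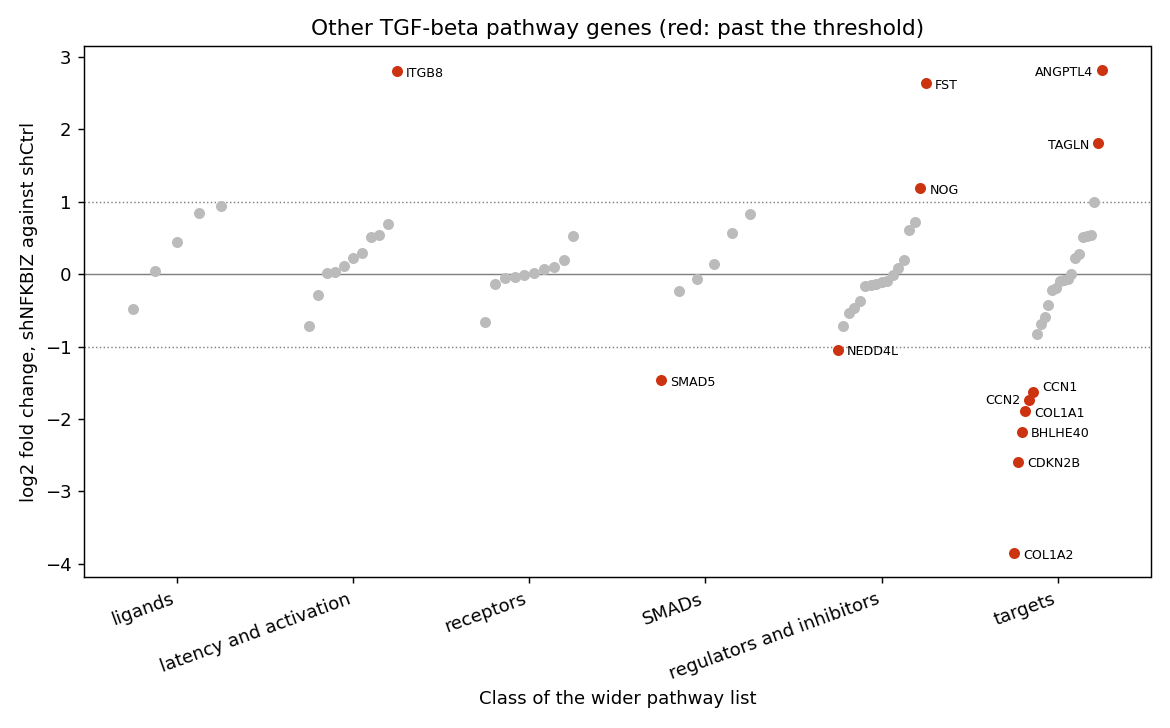
Log2 fold change of shNFKBIZ against shCtrl (edgeR, 3 libraries per group) for the 73 tested genes of the wider list, 1 point per gene, by class, with dotted lines at 2-fold. The 13 genes past the threshold are red and named, and 8 of them are in the class of targets. Of the 13, COL1A2 and ITGB8 had enough reads to be tested only through the group where they were higher.

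The genes with the pattern most like the largest fall and the largest rise were found by the mean absolute difference of log2 CPM, centred over the 6 libraries, among 10603 genes with a mean of at least 100 reads. For SMAD3 they were SREBF1 (0.0211), RIPK2 (0.0354) and PI4K2A (0.0405), whose own log2 fold changes were -1.33, -1.35 and -1.27. For SMAD7 they were the gene ENSG00000260912 (0.04), NT5E (0.0639) and ENTPD7 (0.0766), with 1.47, 1.44 and 1.40. As the libraries fall into 2 groups, this measure mostly reads the size of the group difference.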

How the data were processed

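RNA-seq of 6 LOX-IMVI libraries was analysed, grouped by sample title. The authors mapped reads to GRCh38 in CLC Genomics Workbench with default settings and deposited, per library, whole-number counts of fragments per gene (total exon, unique exon, junction, intron and gene reads) with exon length. Total reads include fragments with several mapping places, and strand was not used. TPM, recomputed per library from exon reads and length, matched the deposited values to 5e-07. Coordinates are those of the files, and all 10 genes had the same ones in GENCODE release 44.

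Total exon reads were tested on the whole table. With filterByExpr, 13843 genes remained. TMM-scaled groups were compared by the two-sided quasi-likelihood test of edgeR 4.0.16 in R 4.3.3 with Benjamini-Hochberg adjustment over all genes tested. The threshold was an adjusted P of at most 0.05 and at least 2-fold. The authors' own CLC test was not used. Intron reads were fitted likewise, and exon and intron changes were compared as an interaction with libraries as blocks. Intervals are 95%. Fits were tested on simulated data. The study describes independent experiments, but the labels do not say how cultures were separated, so P values measure the spread between these libraries. Every pair of replicates differed by more than counting error (chi-square over its degrees of freedom 1.69 to 4.18).

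The 10 genes, the wider list and the marker lists were chosen with earlier results of these data known. Named genes were NFKBIZ, the 10 genes, every gene of the wider list past the threshold, the 3 genes with the pattern nearest to the largest rise and fall, and overlapping genes, with exceptions stated. Alternatives were RLE factors, library size alone, no filter, at least 10 counts in every library, the likelihood ratio test, DESeq2 1.42.0, unique or gene reads, the table without its 10 most abundant genes, a replicate block, each library left out and no fold limit. Junction reads were added after the data were seen. Groups share replicate numbers, but deviations of same-numbered libraries correlated at only 0.0207, 0.0561 and 0.0288, and the numbers were not taken as pairs.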

Additional observations from a re-analysis of the deposited data

How the results depend on the processing

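NFKBIZ ranged from -1.94 to -1.66 over 17 alternatives, and in these alternatives INHBA (-1.20 to -1.08), SMAD3 (-1.35 to -1.21) and SMAD7 (1.35 to 1.62) stayed past the threshold. TGFBI fell short of 2-fold with library size alone (-0.92) and with junction reads (-0.97), an alternative chosen after seeing the data, and ranged from -1.04 to -0.99 when 1 library was left out. TGFBR1 changed sign with library size alone (0.088) and with at least 10 counts in every library (0.001), and ranged from -0.0232 to 0.0208 when 1 library was left out, without passing the test in any of these. The exon minus intron difference changed sign for LTBP2 with library size alone (0.0226), and over left-out libraries it spanned -0.0249 to 0.0206 for LTBP2, -0.40 to 0.16 for TGFB2 and -0.16 to 0.53 for TGFB3. For INHBA that difference passed the adjusted P with library size alone (0.21, adjusted P 0.0322, edgeR) and in 3 of 7 alternatives in all, with adjusted P from 0.0247 to 0.206. For SMAD7 it passed in 1 of 7, without shNFKBIZ replicate 2 (0.61, adjusted P 0.0318, edgeR, of a range up to 0.416). SMAD7 intron reads ranged from 0.89 to 1.09 and crossed 2-fold in 4 of 8 alternatives. With no fold limit 7 of the 10 genes, 55 of the wider list and 9039 of all genes were called, and junction reads called 700 genes, 10622 being tested. Leaving out 1 library gave 3 to 4 of the 10 genes, 13 to 15 of the wider list and 1315 to 1361 of all genes. The count of the wider list fell to 11 with at least 10 counts in every library and to 10 with junction reads. Library size alone called 668 genes higher and 584 lower, where the main scaling called 532 and 709, and moved the median log2 fold change over all genes to 0.0937. With replicate number as a block, which treats the numbers as pairs although the check of the pairing did not bear this out, 1244 genes were past the threshold and it changed no call among the 10 genes. The causes of these shifts were not tested. The depth limits TGFB2 and TGFB3, with at most 113 exon reads per library, and intron reads of TGFBR1, TGFB2 and TGFB3.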
